A study of Mus musculus with 14 samples.

Results

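Sinusoidal endothelial cells line the smallest blood vessels of the liver. They are unusual endothelial cells, with open pores, no firm basement membrane and a dense set of scavenger receptors that clear hyaluronan, modified proteins and immune complexes from blood. They are also an early target of concanavalin A (ConA), a plant lectin that binds glycans on the sinusoidal wall after intravenous injection and activates T cells there. VEGF signalling keeps these cells in their specialised state, and the transcription factor GATA4 is needed for them to form.

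The 9 genes described here were Stab1, Stab2, Lyve1, Clec4g, Oit3, Kdr, Flt4, Fcgr2b and Gata4, chosen by name as markers of this cell type out of the 17656 genes measured. Stab1 and Stab2 encode the scavenger receptors stabilin-1 and stabilin-2. Fcgr2b encodes the inhibitory Fc gamma receptor, which takes up immune complexes. Clec4g encodes the C-type lectin LSECtin. Lyve1 encodes a hyaluronan receptor that lymphatic vessels carry as well. Oit3 encodes a secreted protein with a zona pellucida domain. Kdr and Flt4 encode the VEGF receptors 2 and 3, and Gata4 encodes the transcription factor.

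RNA was sequenced from whole liver of 14 C57BL/6 mice aged 8 weeks, 1 library per mouse. Wild-type (WT) mice and mice labelled as Ythdf1 knockouts (KO; a whole-body CRISPR/Cas9 deletion of an m6A reader) received either saline or ConA at 8 mg/kg through the tail vein, and livers were taken after 8 h. There were 3 mice of each genotype with saline and 4 of each with ConA. The values were TPM, transcripts out of every 1000000, which are scaled for gene length and add up to the same total in each library, so the number of reads behind a value is unknown.

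Some libraries stood apart. WT saline replicates 2 and 3 differed by a median of 0.0578 on the log2 scale over the 3492 genes with at least 10 TPM everywhere, against 0.109 to 0.38 for the other 17 pairs within a group. With no read counts it could not be tested whether the difference between these libraries was within sampling noise, so the calls with WT saline mice were also made with the mean of the pair counted as 1 library, and are given below where that changed them. WT ConA replicate 3 differed from the other WT ConA libraries by 0.335 to 0.38, and KO ConA replicate 3 from replicates 1 and 2 of its group by 0.296 and 0.27. Ythdf1 itself, the targeted gene, was at 12.03, 13.92 and 13.28 TPM in the WT saline mice and at 20.77, 18.44 and 18.56 TPM in the libraries labelled KO saline. After ConA it was at 25.63, 21.44, 18.74 and 20.31 TPM in WT and at 25.89, 26.17, 15.54 and 21.27 TPM in the libraries labelled KO. The Ythdf1 level was thus not lower in the libraries labelled KO, and since a gene total does not show where a transcript was altered, it does not check the genotype. The genotypes below are the labelled ones.

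Promoters of members that behaved differently after ConA are shown first: Clec4g and Kdr, which fell, and Stab2, which did not pass the test. Each is the 250 bases before the transcript start in the RefSeq promoter table (GRCm38.p6), 5′ to 3′ on the gene's strand. Capitals mark the motifs of 2 factor families on either strand. A GATA motif was AGATAA or its form with T as the first letter, TGATAA, or the forms of these that end in G, which are AGATAG and, likewise, TGATAG. An ETS motif was CCGGAA, or its form with A as the second letter, CAGGAA. None of the marked motifs overlapped.
Clec4g promoter: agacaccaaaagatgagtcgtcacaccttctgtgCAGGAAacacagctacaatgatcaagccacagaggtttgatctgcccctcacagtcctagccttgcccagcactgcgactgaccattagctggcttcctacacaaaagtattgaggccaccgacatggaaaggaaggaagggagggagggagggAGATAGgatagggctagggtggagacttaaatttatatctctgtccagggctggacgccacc
Kdr promoter: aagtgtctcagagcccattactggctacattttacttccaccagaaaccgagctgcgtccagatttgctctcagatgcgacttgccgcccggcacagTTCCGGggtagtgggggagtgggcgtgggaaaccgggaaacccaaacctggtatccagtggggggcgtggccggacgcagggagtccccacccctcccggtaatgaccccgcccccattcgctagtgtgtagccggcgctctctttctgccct
Stab2 promoter: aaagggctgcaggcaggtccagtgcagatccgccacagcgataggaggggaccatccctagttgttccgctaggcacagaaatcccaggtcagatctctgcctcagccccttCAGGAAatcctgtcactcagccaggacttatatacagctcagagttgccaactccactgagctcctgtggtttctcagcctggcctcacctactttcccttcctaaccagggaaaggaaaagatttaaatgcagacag

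These windows lie at chr8:3720652-3720901 for Clec4g, chr5:75978456-75978705 for Kdr and chr10:87007943-87008192 for Stab2, all on the minus strand. The Kdr window lies wholly inside the gene span given below, and those of Clec4g and Stab2 lie partly inside theirs. The start used by the promoter table is thus not the outer end of the span, and part of these bases may be transcribed. Of the 9 genes, 6 had a window in the table, and Lyve1, Oit3 and Gata4 were the others. The Clec4g window held 1 GATA motif, 62 bases before the start, and 1 ETS motif, 216 bases before it. The Kdr window held 1 ETS motif at 153 bases and the Stab2 window 1 ETS motif at 138 bases. The Stab1 window held 2 ETS motifs and those of Flt4 and Fcgr2b held neither motif. Over all 32851 windows in the table, 26.5% held a GATA motif and 35.1% an ETS motif.

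The genes are spread over 7 chromosomes (GRCm38.p6). Fcgr2b spans chr1:170960558-170976071, Kdr chr5:75932827-75979072, Lyve1 chr7:110850607-110862953 and Clec4g chr8:3707066-3720695. Oit3 spans chr10:59422960-59441779 and Stab2 chr10:86841194-87008038, while Flt4 spans chr11:49609679-49652739. Stab1 spans chr14:31139017-31168651 and Gata4 chr14:63198914-63271712. Reads were 50 bases long, and 98.8% to 100% of the 50-base stretches of each longest transcript were found in no other gene for 8 of the members. For Fcgr2b it was 87.5%, with Fcgr3 holding most of the shared stretches, so part of an Fcgr2b value may come from reads that also match Fcgr3. Exons of Stab1, Stab2, Clec4g and Fcgr2b overlapped exons of a gene on the opposite strand over 1.09% to 5.93% of their bases, and whether counting used the strand is not given in the sources used here.

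In saline-treated WT liver the members were found at low levels, with summed TPM of the 9 genes between 25.5 and 35.6. Clec4g led with 8.56 ± 3.28 TPM (SD, n = 3), followed by Fcgr2b with 8.21 ± 0.28 TPM, and the ranges of these neighbours overlapped. Stab2 was at 3.52 ± 0.555, Gata4 at 2.86 ± 0.621, Stab1 at 1.82 ± 0.601, Oit3 at 1.34 ± 0.243 and Kdr at 1.29 ± 0.232 TPM, with each range overlapping the next. Flt4 at 0.697 ± 0.343 and Lyve1 at 0.63 ± 0.207 TPM came last. All members were above 0 in all 14 libraries. In bulk liver, fewer cells of a type and less RNA per cell cannot be told apart, and several members are also known in other cells: Stab1 and Fcgr2b in macrophages, Fcgr2b in B cells and Gata4 in stellate cells.

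**Figure D1:**
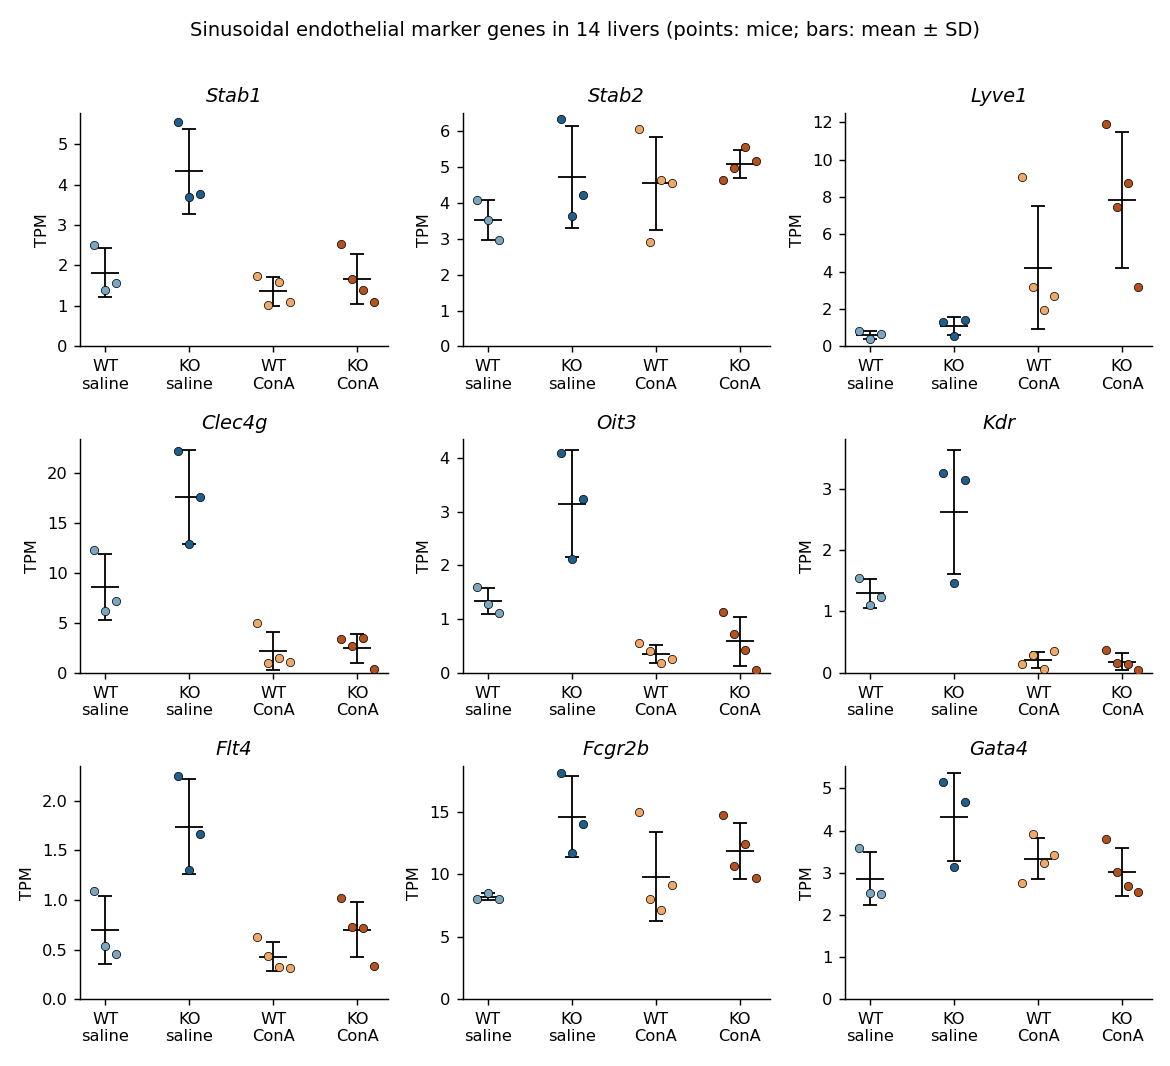
TPM of the 9 marker genes (vertical axes, each from 0) in the 4 groups. Points are mice and bars are the mean ± SD of 3 saline or 4 ConA mice; Lyve1 was higher and Clec4g, Oit3 and Kdr were lower after ConA in both genotypes with no overlap between saline and ConA mice.

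The first question was how the marker genes changed within WT liver 8 h after ConA. The members did not move as a block: Lyve1 rose, Clec4g, Oit3 and Kdr fell, and the other tested members did not pass the test. Values were compared as log2(TPM + 1) with limma, a linear model fitted across all genes with 1 TPM or more in a number of libraries no smaller than the smaller group. Calls were made where the p, adjusted by Benjamini-Hochberg over all genes tested, was under 0.05. The scale understates the change of genes near 1 TPM, so the ratio of mean TPM is given as well. Of the members, 8 were tested and 4 called, where 53.0% of all 10768 genes tested were called (22.0% higher and 31.0% lower), so the number called was close to the background. Kdr and Oit3 passed the minimum only through the saline mice, and Lyve1 only through the ConA mice, so they could be tested only because 1 group was high, and the adjusted p with no minimum level is given for them as well.

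Kdr, the main signalling receptor for VEGF-A, was at 1.55, 1.10 and 1.23 TPM in WT saline and at 0.14, 0.29, 0.07 and 0.36 TPM in WT ConA mice. Every ConA mouse lay below every saline mouse. The mean was 6.02-fold lower, and the log2 fold change was -0.92 (SE 0.14, limma adjusted p = 4.84e-04), and 4.66e-04 with no minimum level.

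Clec4g, whose lectin binds glycans on T cells and dampens them, was at 12.30, 6.20 and 7.18 TPM in WT saline and at 5.01, 1.04, 1.54 and 1.12 TPM in WT ConA mice. The groups did not overlap, and WT ConA replicate 1 was the highest of its group. The mean was 3.93-fold lower (log2 fold change -1.69, SE 0.38, limma adjusted p = 0.00458). Without WT ConA replicate 1 the mean of Clec4g was 6.94-fold lower. Oit3 went from 1.60, 1.29 and 1.12 TPM to 0.55, 0.41, 0.18 and 0.26 TPM, 3.82-fold lower in the mean (log2 fold change -0.79, SE 0.14, limma adjusted p = 0.0014, and 0.00142 with no minimum level).

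Lyve1 went the other way. It was at 0.82, 0.41 and 0.66 TPM in WT saline and at 9.09, 3.17, 1.95 and 2.69 TPM in WT ConA mice. Each ConA mouse was above each saline mouse, and WT ConA replicate 1 was far above the rest. The mean was 6.71-fold higher and the log2 fold change was 1.51 (SE 0.37, limma adjusted p = 0.00674, and 0.0188 with no minimum level). It was 1.14 without WT ConA replicate 1.

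The stabilins, Fcgr2b and Gata4 did not pass the test in WT. Stab2 was at 2.96 to 4.07 TPM in saline and 2.92 to 6.06 TPM in ConA mice (log2 fold change 0.27, SE 0.21, limma adjusted p = 0.295). Stab1 had a log2 fold change of -0.25 (SE 0.18, limma adjusted p = 0.286). Fcgr2b, at 8.03 to 8.53 TPM in saline and 7.13 to 14.97 TPM in ConA mice, had 0.18 (SE 0.22, limma adjusted p = 0.519), and -0.02 without WT ConA replicate 1. Gata4 had 0.17 (SE 0.16, limma adjusted p = 0.396). Flt4 was below the minimum in WT, with 0.46 to 1.09 TPM in saline and 0.32 to 0.63 TPM in ConA mice. With the mean of WT saline replicates 2 and 3 counted as 1 library, and without WT ConA replicate 3, 4 members were called.

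The same comparison within the KO mice showed larger differences for some members. Of the 9 members, all tested, 6 were called, where 64.6% of all 10988 genes tested were called (33.9% higher and 30.7% lower), again close to the background. Lyve1 rose, and Clec4g, Kdr, Oit3, Stab1 and Flt4 fell, each with no overlap between the groups. The share of all genes with no overlap between saline and ConA mice was not counted in either genotype.

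Kdr was at 3.25, 1.46 and 3.14 TPM in KO saline and at 0.37, 0.16, 0.15 and 0.05 TPM in KO ConA mice. It was the member with the largest ratio, a mean 14.3-fold lower (log2 fold change -1.58, SE 0.20, limma adjusted p = 5.37e-05). Flt4, the receptor for VEGF-C and VEGF-D, was at 2.25, 1.30 and 1.66 TPM in saline and at 1.02, 0.73, 0.72 and 0.34 TPM in ConA mice, a mean 2.47-fold lower (log2 fold change -0.69, SE 0.18, limma adjusted p = 0.00652, and 0.012 with no minimum level). Both VEGF receptors among the members thus fell in KO mice.

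Clec4g was at 22.20, 12.87 and 17.55 TPM in KO saline and at 3.36, 2.64, 3.50 and 0.39 TPM in KO ConA mice. The mean was 7.09-fold lower (log2 fold change -2.52, SE 0.37, limma adjusted p = 1.42e-04). KO ConA replicate 4 was the lowest of the 14 libraries. Oit3 was at 4.09, 2.12 and 3.24 TPM in saline and at 1.14, 0.72, 0.43 and 0.06 TPM in ConA mice, 5.36-fold lower in the mean (log2 fold change -1.40, SE 0.25, limma adjusted p = 4.89e-04). Kdr, Oit3 and Flt4 reached the minimum in the 3 saline mice and in 0, 1 and 1 of the ConA mice, so they were tested only because the saline mice were high. With no minimum level the adjusted p was 3.41e-04 for Kdr and 0.00267 for Oit3.

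The stabilins parted. Stab1 was at 5.54, 3.69 and 3.76 TPM in KO saline and at 2.52, 1.66, 1.40 and 1.09 TPM in KO ConA mice, 2.6-fold lower in the mean (log2 fold change -1.01, SE 0.21, limma adjusted p = 0.00142). Stab2, which clears hyaluronan, was at 6.33, 3.62 and 4.23 TPM in saline and at 4.63, 4.96, 5.56 and 5.17 TPM in ConA mice, and the groups overlapped (log2 fold change 0.11, SE 0.18, limma adjusted p = 0.606). The log2 fold change of Stab2 was -0.03 without KO saline replicate 2.

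Lyve1 was at 1.33, 0.55 and 1.44 TPM in KO saline and at 11.92, 7.49, 8.76 and 3.16 TPM in KO ConA mice. The mean was 7.08-fold higher (log2 fold change 1.98, SE 0.34, limma adjusted p = 3.78e-04), and all ConA mice were above all saline mice. Lyve1 passed the minimum only with the ConA mice, since 2 saline mice reached it, and its adjusted p with no minimum level was 0.00287. Fcgr2b had a log2 fold change of -0.27 (SE 0.19, limma adjusted p = 0.218). Gata4 had -0.40 (SE 0.19, limma adjusted p = 0.0849); it was called without KO saline replicate 2 (-0.57, adjusted p = 0.0356) and without KO ConA replicate 1 (-0.49, adjusted p = 0.0477). Without KO ConA replicate 3, the calls numbered 6.

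**Figure D2:**
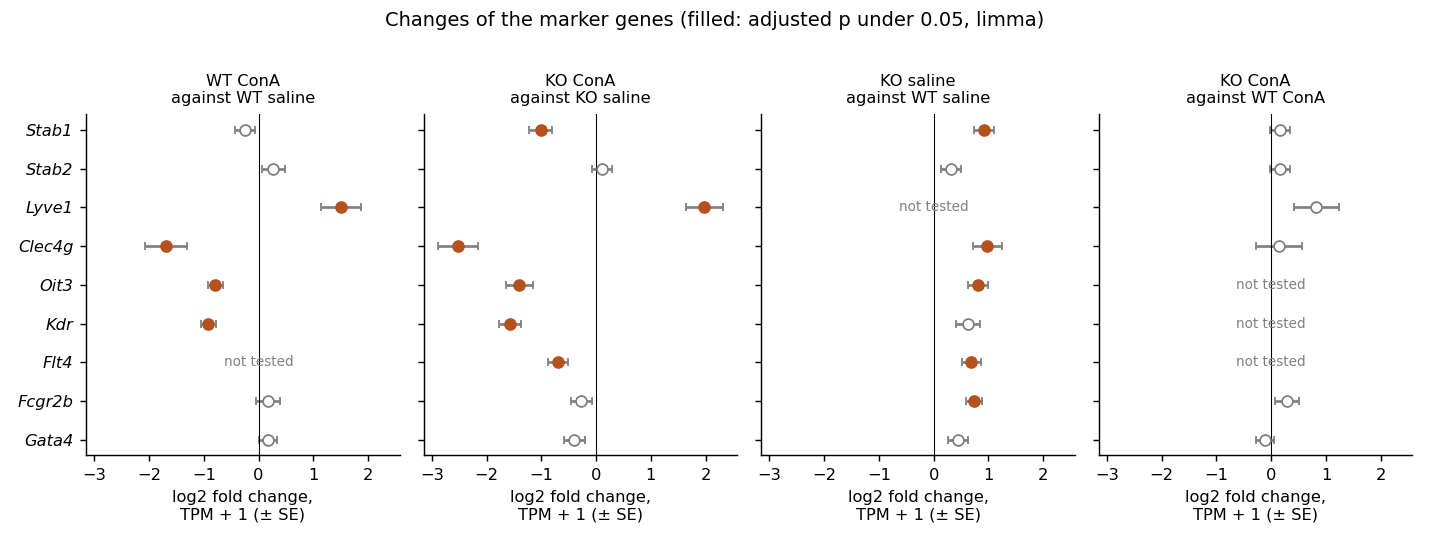
Log2 fold changes of TPM + 1 with their SE (horizontal axis) for each marker gene (vertical axis) in 4 comparisons, filled where the limma adjusted p was under 0.05. Lyve1 lies to the right of 0 and Clec4g, Oit3 and Kdr to the left in both ConA comparisons; genes under the minimum level are marked as not tested.

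Because TPM is relative to the whole library, the members were also set against each other within each library. In WT saline mice Clec4g made up 28.9 ± 5.22% (SD, n = 3) of the summed TPM of the 9 genes, and in WT ConA mice 7.36 ± 3.47% (n = 4). In KO mice its share went from 32.3 ± 0.469% to 6.88 ± 3.54%. Lyve1 took 2.16 ± 0.495% in WT saline and 14.6 ± 5.57% in WT ConA mice, and 2 ± 0.662% and 22.3 ± 5.77% in the KO groups. The ranges of the saline and ConA mice did not overlap for either gene. Fcgr2b took 29.1 ± 5.76% and 37.2 ± 2.23% in WT, and 27.2 ± 1.55% and 36.3 ± 4.54% in KO mice.

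The order of the members differed accordingly. Fcgr2b was first after ConA in both genotypes, with means of 9.82 and 11.9 TPM, and Kdr was last, with 0.215 and 0.183 TPM. Lyve1, last in both saline groups, ranked 3 of 9 in WT ConA mice, where its range overlapped those of Stab2 and Gata4, and 2 of 9 in KO ConA mice, where it overlapped those of Fcgr2b and Stab2. The log2 ratio of Lyve1 to Clec4g, with 0.1 TPM added to each, was -3.55 ± 0.26 with saline and 0.97 ± 0.51 with ConA in WT mice, and -3.93 ± 0.40 and 1.82 ± 0.64 in KO mice. The log2 ratio of Stab2 to Stab1 was 0.94 ± 0.31 and 1.65 ± 0.24 in WT saline and ConA mice, and 0.11 ± 0.12 and 1.61 ± 0.57 in KO saline and ConA mice. These ratios show unequal change of the genes compared, not which of them moved.

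**Figure D3:**
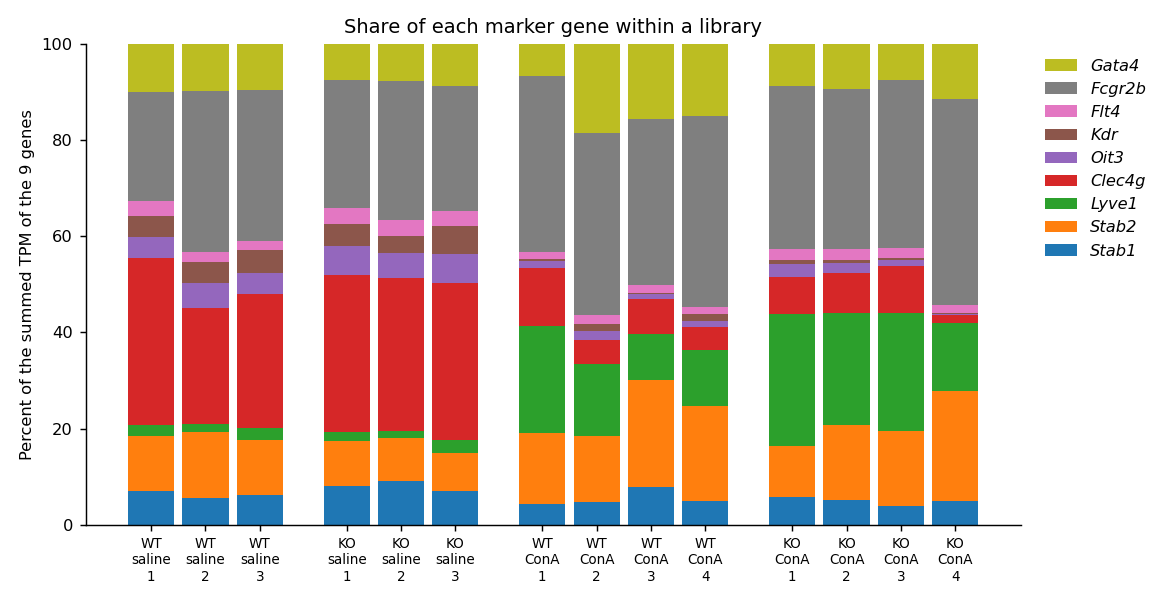
Share of each marker gene in the summed TPM of the 9 genes (vertical axis, percent) in each of the 14 libraries. Clec4g takes 24.3% to 34.6% of the sum in saline mice and 1.73% to 12.2% in ConA mice, while Lyve1 takes 1.36% to 2.68% in saline and 9.43% to 27.4% in ConA mice.

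A further question was whether the genotypes differed without ConA; the KO saline mice here are the controls of the ConA comparison within KO mice, so the 2 comparisons are not independent. In KO saline mice 5 members were higher than in WT saline mice, of 8 tested, where 6.30% of the 10459 genes tested were called higher and 19.2% were called in either direction. Stab1 had a 2.37-fold higher mean (log2 fold change 0.92, SE 0.19, limma adjusted p = 0.0231) and Clec4g a 2.05-fold higher mean (0.98, SE 0.26, limma adjusted p = 0.0421). Oit3 was 2.36-fold higher (0.81, SE 0.18, limma adjusted p = 0.0291) and Flt4 2.49-fold higher (0.69, SE 0.18, limma adjusted p = 0.0403). Fcgr2b, at 8.03, 8.53 and 8.06 TPM in WT and 18.08, 11.72 and 14.02 TPM in KO mice, was 1.78-fold higher (0.74, SE 0.14, limma adjusted p = 0.0213). None of these 5 genes overlapped between the groups, but the share of all genes with no overlap was not counted. Flt4, at 1.09, 0.54 and 0.46 TPM in WT and 2.25, 1.30 and 1.66 TPM in KO mice, passed the minimum only through the KO mice. With no minimum level limma called only Fcgr2b of the 5 (adjusted p = 0.0465), while Stab1 had 0.052, Oit3 0.0598, Flt4 0.0705 and Clec4g 0.0828.

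Kdr (log2 fold change 0.62, SE 0.22, limma adjusted p = 0.0791), Gata4 (0.45, SE 0.18, limma adjusted p = 0.104) and Stab2 (0.32, SE 0.18, limma adjusted p = 0.226) did not pass the test and overlapped between the groups. Lyve1 was below the minimum, with a 1.76-fold higher mean in KO mice and overlapping values.

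These calls depended on single libraries. With the mean of WT saline replicates 2 and 3 counted as 1 library, no member was called by limma (for the 5 genes, adjusted p from 0.0909 for Fcgr2b to 0.142 for Clec4g), with 5 members at an unadjusted p under 0.05. Of all 10459 genes, 55 were called then, with 2762 at an unadjusted p under 0.05. Without WT saline replicate 2 or replicate 3 the count was 0 (5 at an unadjusted p under 0.05 each), without KO saline replicate 1 it was 1, and without KO saline replicate 3 it was 3. The direction stayed in all these settings, with log2 fold changes of the 5 genes between 0.56 and 1.25 over all alternatives tried.

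With ConA no difference between the genotypes was detected for the members. Of the 6 members tested between KO ConA and WT ConA mice, limma called 0, where 0.428% of the 10519 genes tested were called. At an unadjusted p under 0.05 there were also 0 of the 6, against 16.7% of all genes. Lyve1 had the largest difference, a 1.85-fold higher mean in KO mice (log2 fold change 0.82, SE 0.41, limma adjusted p = 0.349), with overlapping values. The other 5 tested members had log2 fold changes between -0.11 and 0.29. Oit3, Kdr and Flt4 were below the minimum. The genotype difference of Stab1 was 0.16 (SE 0.19) in ConA mice beside 0.92 in saline mice, and that of Clec4g 0.15 (SE 0.42) beside 0.98.

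The difference between the ConA responses of the KO and the WT mice was tested as an interaction over all 14 libraries. None of the 9 members was called by limma, where 4.78% of the 11327 genes tested were called. At an unadjusted p under 0.05 there were 3 members, against 25.3% of all genes: Stab1 (-0.76, SE 0.29, limma adjusted p = 0.12), Kdr (-0.66, SE 0.25, limma adjusted p = 0.128) and Gata4 (-0.57, SE 0.24, limma adjusted p = 0.162). That Stab1 was called within KO mice and not within WT mice therefore does not show that its response differed.

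Kdr belongs to the VEGF pathway, whose ligands and other receptors were called in both directions after ConA. Vegfa, the ligand of Kdr, had 59.65 to 61.04 TPM with saline and 76.96 to 147.77 TPM with ConA in WT mice and rose in both genotypes (log2 fold change 0.76, SE 0.21, limma adjusted p = 0.0119 in WT, and 1.22, SE 0.16, limma adjusted p = 7.12e-05 in KO). Vegfb, which binds Flt1 and not Kdr, fell (-0.67 in WT and -0.96 in KO). Flt1, the high-affinity VEGF-A receptor, rose in KO mice (0.63), where it passed the minimum only through the ConA mice. In WT it was below the minimum, at 0.27 to 0.64 TPM with saline and 0.54 to 1.63 TPM with ConA. The log2 ratio of Flt1 to Kdr was -1.45 ± 0.27 in WT saline and 1.79 ± 0.78 in WT ConA mice, and -1.32 ± 0.32 and 2.99 ± 0.49 in KO saline and ConA mice. Of the VEGF ligands and receptors outside the members, 3 of 6 tested were called in WT (1 higher, 2 lower) and 5 of 7 in KO mice (3 higher, 2 lower), near the 53.0% and 64.6% of all genes called. The co-receptor Nrp1 was not called (0.24 and 0.18), and Nrp2 rose in KO mice (1.51). Genes known to respond to VEGF or to other stimuli of endothelium were called higher in 3 of 5 tested in WT and 5 of 6 in KO mice, where 22.0% and 33.9% of all genes were, among them the protease gene Adamts1 (2.16 and 2.65) and the calcineurin regulator Rcan1 (1.15 and 1.96). In WT, Adamts1 (0.61 to 0.88 TPM with saline) and Dusp5 (0.36 to 0.54 TPM) passed the minimum only through the ConA mice. In KO mice this held for Adamts1, Dusp5 and Nr4a1 at least. They could be tested only because the ConA mice were high, so the counts lean towards rises. Rcan1 reached the minimum in every library.

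Other genes of the sinusoidal endothelium fell with Clec4g, Oit3 and Kdr. Of 15 tested in WT, 8 fell and none rose, with a median log2 fold change of -0.90 against -0.07 over all genes tested, and of 16 tested in KO mice 9 fell and none rose, with a median of -0.92 against 0.07. Of all genes tested 31.0% and 30.7% fell. Mrc1 and Fam167b in WT (medians 0.465 and 0.605 TPM with ConA) and Bmp2 in KO mice (0.625 TPM) passed the minimum only through the saline mice. The counts and medians thus lean towards falls. Without a minimum, 11 of the list's 19 genes in WT and 9 in KO mice were lower with no overlap between saline and ConA mice. None was higher, and that share was not counted for all genes. Kupffer cell markers fell in the same livers, and the part of other cells in the values of this list was not tested. The count in WT was 5 without WT saline replicate 1 and 6 when replicates 2 and 3 were averaged, where Pltp and Cd36 were not called (adjusted p = 0.0748 and 0.0679). Ehd3, an endocytic membrane protein of these cells, fell in both (-0.90, SE 0.25, limma adjusted p = 0.0135 in WT, and -1.44, SE 0.29, limma adjusted p = 0.00135 in KO), as did Pltp, a phospholipid transfer protein also made elsewhere in the liver (-1.20 and -1.76). The orphan receptor Gpr182 fell in KO mice (-1.64) and had -0.61 in WT, where it was not called. The 2 most abundant genes of the list after Ctsl, which is expressed in most cells, were Plpp3, with -1.13 in WT where it fell and 0.15 in KO, and Cd36, with -0.96 in WT where it fell and -0.28 in KO.

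General endothelial genes split. In WT 4 of 11 tested were called, all higher, with a median of 0.38, and 2 were called when any 1 of the 3 WT saline replicates was left out or replicates 2 and 3 were averaged. With no minimum level 8 of 21 were called in WT, 2 higher and 6 lower. In KO mice 11 of 16 were called, 4 higher and 7 lower, with a median of -0.40. Of all genes tested 53.0% were called in WT (22.0% higher and 31.0% lower). In KO mice it was 64.6% (33.9% higher and 30.7% lower), so the number called there was close to the background. Esam, an adhesion molecule of endothelial junctions, rose in both genotypes (1.53, SE 0.28, limma adjusted p = 0.00155 in WT, and 1.23, SE 0.27, limma adjusted p = 0.00218 in KO). Eng, a co-receptor for TGF-beta and BMP9, fell in KO mice (-1.67) and had -0.67 in WT. Ptprb, the endothelial phosphatase that acts on the angiopoietin receptor, fell in KO mice (-1.53), where it passed the minimum only through the saline mice. In WT it was below the minimum, at 0.88 to 1.22 TPM with saline and 0.07 to 0.21 TPM with ConA. Egfl7 was not called in either (0.29 and -0.34).

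Activation and adhesion genes rose at the same time. Of 7 tested in WT, 5 were higher and 1 lower, and of 11 tested in KO mice 7 were higher and 1 lower. The medians were 1.07 and 1.05, where 22.0% and 33.9% of all genes were higher. Tnfaip3 and Thbd, at no more than 0.58 and 0.64 TPM with saline, passed the minimum only through the ConA mice in both genotypes. So did Cd34 in WT (median 0.37 TPM with saline), and Sele and Cx3cl1 in KO mice (up to 0.03 and 0.50 TPM). The counts and medians thus lean towards rises. Without a minimum, 6 of the list's 12 genes were higher and 1 lower in each genotype with no overlap between saline and ConA mice. That share was not counted for all genes. Icam1, a leukocyte adhesion molecule, went from 5.78 to 6.95 TPM in WT saline to 193.95 to 237.32 TPM in WT ConA mice (log2 fold change 4.88, SE 0.13, limma adjusted p = 3.89e-08), and by 4.57 in KO mice. Vcam1 rose by 1.92 and 2.81 and Tnfaip3, a feedback inhibitor of NF-kB, by 3.94 and 4.67. Plvap, a protein of endothelial diaphragms, fell in KO mice (-0.89) and had -0.04 in WT. Icam1 and Tnfaip3 are also expressed by leukocytes and hepatocytes.

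**Figure D4:**
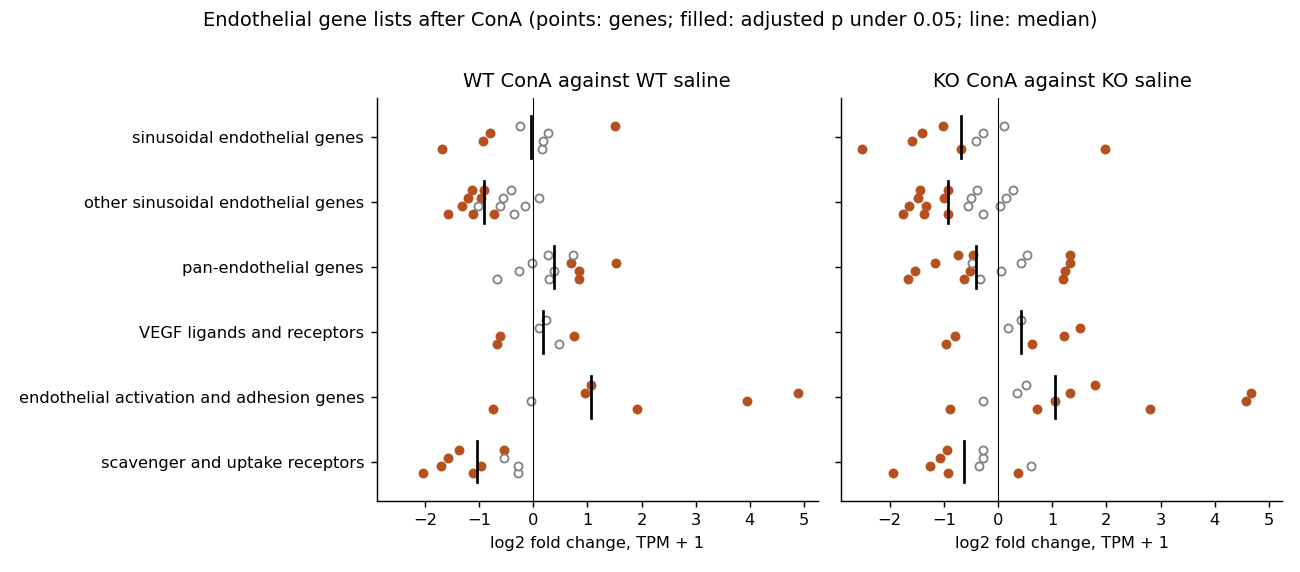
Log2 fold changes of TPM + 1 (horizontal axis) of the tested genes of 6 lists after ConA in WT (left) and KO mice (right), filled where the limma adjusted p was under 0.05, with the list median as a line. The other sinusoidal genes have medians of -0.90 and -0.92 and the activation genes 1.07 and 1.05.

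Stab1, Stab2 and Fcgr2b work in uptake from blood, and other uptake receptors were lower after ConA: 7 of 10 tested fell in WT with none higher (median -1.04), and in KO mice 5 fell and 1 rose of 10 (median -0.63), where 31.0% and 30.7% of all genes fell. Of this list Mrc1 and Cd36 also stand among the other sinusoidal genes, Cd163 and Marco among the Kupffer cell markers and Msr1 among the angiocrine genes. Cd163, at no more than 0.20 and 0.22 TPM with ConA in WT and KO mice, passed the minimum only through the saline mice. The counts thus lean towards falls. Of the 5 tested genes that stand in this list alone, 4 fell in WT, and 3 fell and 1 rose in KO mice. Fcgrt, the neonatal Fc receptor that recycles IgG and albumin, fell in both (-1.37 and -1.07), as did Scarf1 (-1.70 and -1.94), Colec12 (-2.03 and -0.95) and Cd163 (-1.58 and -1.25). Lrp1, a large endocytic receptor of hepatocytes and macrophages, fell in WT (-0.53) and had -0.35 in KO mice. Scarb1, the HDL receptor, was the one that rose in KO mice (0.37) and had -0.28 in WT. Of the activating Fc gamma receptors and their signalling chain, 1 of 4 tested was higher in WT and 3 of 4 in KO mice, where 22.0% and 33.9% of all genes were, and the count in WT was 0 (1 at an unadjusted p under 0.05) when WT saline replicates 2 and 3 were averaged. A difference between these genes and Fcgr2b was not tested. Fcer1g, the shared chain, rose in both (0.95 and 1.10; adjusted p = 0.0549 in WT with the pair averaged), while Fcgr3 and Fcgr4 rose in KO mice (1.38 and 1.28) and had 0.54 and 0.29 in WT.

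Of the factors related to Gata4, Gata6 rose in both genotypes (0.85, SE 0.21, limma adjusted p = 0.0069 in WT, and 0.73, SE 0.15, limma adjusted p = 0.00149 in KO), as did Klf2, a factor induced by blood flow (1.48 and 0.81). Of the list, 2 of 4 tested in WT and 3 of 5 in KO mice were called, all higher, with Klf4 (0.60) in KO mice; 53.0% and 64.6% of all genes were called. Klf4 passed the minimum in KO mice only through the ConA mice. In WT it was below the minimum, at 0.03 to 0.27 TPM with saline and 0.35 to 1.42 TPM with ConA. Zfpm1, a GATA cofactor, was not called (-0.03 and -0.38). A list of angiocrine and zonation genes held signals that endothelium secretes, such as Bmp2 and Rspo3, together with receptors and matrix genes. Of it limma called 0 of 2 tested in WT, with Msr1, a scavenger receptor known from macrophages, at an unadjusted p under 0.05 (-0.54, limma adjusted p = 0.0785) and Ltbp4 not (0.15), and 1 of 4 in KO mice, where Bmp2 fell (-0.99). In WT Bmp2 was below the minimum, at 0.89 to 1.10 TPM with saline and 0.27 to 0.72 TPM with ConA. Rspo3 had -0.03 in KO mice. Over the named genes of all lists, other cell types included, 33 calls within WT were kept with the mean of WT saline replicates 2 and 3 counted as 1 library, and 3 were lost, those of Cd36, Pltp and Fcer1g.

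Between KO and WT saline mice the other endothelial lists differed among themselves. Of 15 general endothelial genes tested 10 were higher in KO mice and none lower, and of 16 other sinusoidal genes 6 were higher, 2 lower and 8 not called, where 6.30% of all genes were higher. The medians were 0.58 and 0.50 against -0.10 over all genes. Tek and Mmrn2 (up to 0.94 and 0.77 TPM in WT mice) and Ptprb (median 0.92 TPM) passed the minimum only through the KO mice. The count and median of the general genes thus lean towards higher values. Without a minimum, 15 of the 21 general genes were higher in KO mice and none lower with no overlap. Of the 19 other sinusoidal genes 7 were higher and 2 lower. That share was not counted for all genes. The summed TPM of the other sinusoidal genes was lower in KO mice, at 591 to 780 against 938 to 986 TPM. Most of this sum was Ctsl, with means of 488 TPM in KO and 789 TPM in WT saline mice. The lower sum thus reflects Ctsl and not the list as a whole. Of 6 VEGF ligands and receptors 1 was lower and none higher. Ehd3 was higher by 1.64, Eng by 1.51, Esam by 1.14, Plvap by 1.59 and Klf2 by 0.91, while Plpp3 (-0.92), Ctsl (-0.71) and Vegfa (-0.35) were lower. With the mean of WT saline replicates 2 and 3 counted as 1 library, limma called 0 genes of either list, with 8 and 11 at an unadjusted p under 0.05. The calls between the saline groups of all 20 named genes outside the members were lost then as well. The counts were also 0 and 0 without WT saline replicate 2 (9 and 11 unadjusted) or without replicate 3 (8 and 11). Without KO saline replicate 1 they were 2 and 0 (8 and 12 unadjusted), and for the general genes they were 5 without KO saline replicate 2 and 6 without KO saline replicate 3.

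Markers of other cells moved in the same libraries. Summed stellate cell markers were at 35.5 to 139 TPM with saline and 57.8 to 138 TPM with ConA in WT mice, and at 163 to 261 TPM and 98.6 to 193 TPM in KO mice. Among them Ecm1 was higher in KO than in WT saline mice (2.28, SE 0.48, limma adjusted p = 0.0246), with 3 of 9 tested called higher, where 6.30% of all genes were (9 without WT saline replicate 1, and 0 when WT saline replicate 2 or 3 or KO saline replicate 1 or 2 was left out), and Dcn had 1.59 (limma adjusted p = 0.0599). Lrat, another of the stellate markers called higher, had a median of 0.56 TPM in WT saline mice. It passed the minimum only through the KO mice, so this count leans towards higher values. Summed Kupffer cell markers were at 139 to 234 TPM with saline and 25.5 to 94 TPM with ConA in WT mice, and at 66.2 to 149 TPM and 20 to 84.9 TPM in KO mice. After ConA 10 of 11 fell in WT and 5 of 11 in KO mice, where 31.0% and 30.7% of all genes fell, among them Clec4f (-3.32 and -2.13), and limma called 0 of 11 between the saline groups, with 3 at an unadjusted p under 0.05. In WT Cd163 and Adgre1 (up to 0.20 and 0.89 TPM with ConA), Vsig4 and Timd4 (medians 0.365 TPM each) passed the minimum only through the saline mice. So did Cd163 in KO mice, and the counts of Kupffer markers thus lean towards falls. With saline, general endothelial genes summed to 23.5 to 39.5 TPM in WT and to 52.4 to 74.6 TPM in KO mice. No gene of these 3 lists was at 0 in all libraries of a group. The part of these cells in the values of the members was not tested. Summed B cell markers were at 0.41 to 4.11 TPM in all libraries, with Cd79a the most abundant.

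**Figure D5:**
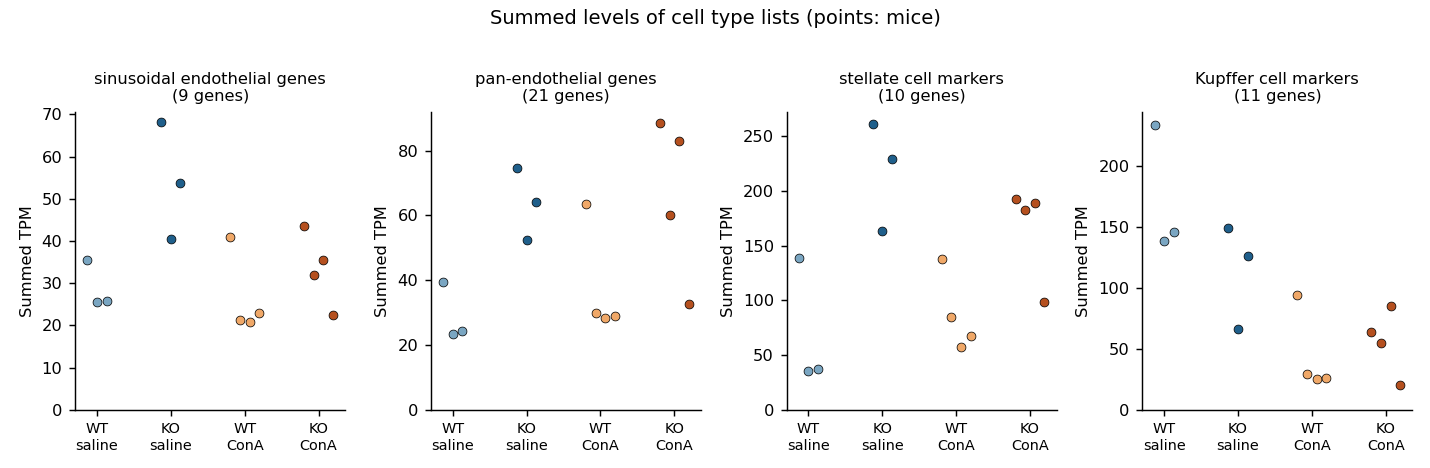
Summed TPM (vertical axes, each from 0) of the 9 marker genes and of 3 cell type lists in each mouse of the 4 groups. KO saline mice lie at 40.5 to 68.2 TPM for the marker genes and 163 to 261 TPM for stellate markers, both above WT saline mice, while Kupffer markers lie at 66.2 to 149 TPM.

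Within a group the members varied together from mouse to mouse. KO saline replicate 2 had the lowest value of its group for 9 of 9 members and KO saline replicate 1 the highest for 8. WT saline replicate 1 was the highest of its group for 8 members, WT ConA replicate 1 and KO ConA replicate 1 for 7 each, and KO ConA replicate 4 was the lowest for 8. Over the 14 libraries, Pearson's r between the members' deviations from their group means was above 0 in 36 of 36 pairs, from 0.05 for Stab2 and Gata4 to 0.90 for Oit3 and Flt4, with a median of 0.62. The values of a pair come from the same libraries and share their scaling, and the share of pairs above 0 was not counted for other genes.

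Of 10636 other genes ranked by the same measure against the mean of the members, those most like them were Gimap4 (r = 0.96), Itgb3 (0.96), Csf1r (0.95), Lrmp (0.95), Rcn1 (0.95), Chst15 (0.95), Ehd3 (0.95), Itgb2 (0.95), Plxnd1 (0.95) and Sdc3 (0.94), all over 14 libraries. The median r over all genes ranked was 0.11. Among the 100 most like genes were 5 of 16 other sinusoidal endothelial genes and 5 of 11 general endothelial genes, but also 6 of 10 Kupffer cell markers, one of which is Csf1r, the receptor for the macrophage growth factor CSF1. The median r was 0.77 for other sinusoidal endothelial genes and 0.88 for general endothelial genes. It was 0.89 for Kupffer markers, 0.88 for Fc gamma receptors, 0.77 for stellate markers, 0.71 for neutrophil markers and 0.25 for hepatocyte markers.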

How the data were processed

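The deposited files hold 1 TPM value per gene and library, made by the authors from single-end reads of 50 bases of whole-liver RNA. The submitters' processing notes name Bowtie2, RSEM (1.3.1) and GRCm38.p6, while the study's methods name STAR, HTSeq and edgeR; which of them made the TPM values is not given in the sources used here. TPM keeps no depth, so no count model, interval or detection limit was used, although the study's methods use a count test.

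Groups came from the labels. The files of all 14 libraries were joined (17656 genes; 2230 to 2701 at 0 per library), transformed as log2(TPM + 1), filtered at 1 TPM in as many libraries as the smaller group holds, and tested with limma (3.58.1, R 4.3.3; lmFit and eBayes with trend), 2 groups per fit, with all 14 libraries for the interaction, and Benjamini-Hochberg adjustment over all genes tested. The script was tested on simulated data. The median log2 fold change of all genes tested was -0.10 to 0.14 over the 5 comparisons, and -0.05 to 0.03 after each library was rescaled by its median ratio.

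The 9 members and the 15 other gene lists were chosen with earlier results of these data known. The 9 members are named throughout, and of each other list the 3 genes with the highest mean TPM and the 3 with the largest log2 fold change among called genes, with the 10 genes most like the members and Ythdf1; Flt1 was named after its values were seen. Alternatives were a pseudocount of 0.1, a minimum of 5 TPM or none, rescaling, all 14 libraries in 1 fit, a replicate block, the mean of WT saline replicates 2 and 3, and leaving out each replicate. Same-numbered mice deviated together in some pairs only: r was over 0.1 in 8 of 19, from -0.19 to 0.41, and highest for the 2 ConA replicates 3. Replicate numbers were not used as pairs in the main fits. With a replicate block, 140 genes were called between the ConA groups in place of 45. Promoters, gene positions and transcripts came from RefSeq (GRCm38.p6) and GENCODE vM21; 6 of 9 members matched a promoter.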

Additional observations from a re-analysis of the deposited data

Results flagged for a closer look

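In the ConA groups, each with 4 mice, the gap between the most extreme mouse and its nearest neighbour was compared with the range of the group for each member (18 tests, with the critical ratio of Dixon's test). WT ConA replicate 1 stood out for Lyve1 (9.09 TPM; the group's other mice had 1.95 to 3.17 TPM) and for Clec4g (5.01 TPM; the others had 1.04 to 1.54 TPM). Chance alone marks about 1 group in 20, and both values come from the same library. Without this mouse the log2 fold changes between WT ConA and WT saline were 1.14 for Lyve1 and -2.05 for Clec4g, and both were still called.

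The difference between the ConA responses (KO minus WT, interaction over 14 libraries, limma) passed the adjusted threshold for 7 named genes outside the members. It was 1.28 for Plpp3, -0.68 for Ptprb, 1.03 for Nrp2, 1.64 for Nr4a1, 1.51 for Dusp5, 1.08 for Colec12 and -1.18 for Apoc3, on the log2 scale. When the mean of WT saline replicates 2 and 3 counted as 1 library, 28 of all 11327 genes were called for this difference in place of 541, and none of these 7 was among them.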

How the results depend on the processing

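Under a minimum of 5 TPM, 1 of 2 members tested was called between WT ConA and WT saline, 2 of 4 between KO ConA and KO saline, and 2 of 2 between KO and WT saline; fewer members were tested there. Between KO and WT saline the 5 calls became 1 with no minimum, 1 with all 14 libraries in the fit, 0 when WT saline replicates 2 and 3 were averaged, and 0 to 5 when single replicates were left out, while the genes called numbered 2009, 958, 332 and 55 in the same order of settings. With single replicates left out, the counts within WT were 4 and within KO mice 6 to 7. Log2 fold changes changed sign in a few settings, with no such value called: -0.02 for Fcgr2b in WT without WT ConA replicate 1 (up to 0.30 over the replicates left out), -0.03 for Stab2 in KO mice without KO saline replicate 2 (up to 0.30), -0.01 for Clec4g between the ConA groups without WT ConA replicate 2 or KO ConA replicate 1, -0.02 without KO ConA replicate 3 and -0.08 with both ConA replicates 3 left out (up to 0.54), and 0.03 for the Stab2 interaction without KO saline replicate 1 (down to -0.31). The causes of these changes were not tested. A replicate block called 7 members between KO and WT saline, adding Kdr (adjusted p = 0.0372) and Gata4 (0.0445), and changed no other member's call. Rescaling turned the split of all calls between KO and WT saline from 659 higher of 2009 to 742 higher of 1512, and between the ConA groups from 36 of 45 to 12 of 25; within KO mice it added Gata4 (-0.43, adjusted p = 0.0233). With depth unknown, the counting error of members under 1 TPM, such as Kdr after ConA, is unknown as well.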

Other observations

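Lymphatic endothelium also carries Lyve1 and Flt4, and its other markers did not move as 1 list. Pdpn, a mucin-type membrane protein that stromal and epithelial cells share, rose in WT (log2 fold change 0.91, SE 0.23, limma adjusted p = 0.00863) and had 0.75 in KO mice. Prox1, the lymphatic master regulator that hepatocytes express as well, rose in KO mice (0.62, limma adjusted p = 0.0432) and had -0.18 in WT. It went from 12.4 to 13.25 TPM in KO saline to 11.83 to 28.68 TPM in KO ConA mice, with overlap. WT saline mice had 20.12 to 22.32 TPM, so Prox1 was lower in KO saline mice (limma adjusted p = 0.00743). With the mean of WT saline replicates 2 and 3 counted as 1 library, the limma adjusted p was 0.0602. Ccl21a, a chemokine of lymphatic vessels, fell in KO mice (-1.70, limma adjusted p = 1.68e-04), was higher in KO than in WT saline mice (1.87, limma adjusted p = 0.0132), and was one of the named genes called between the ConA groups (1.20, limma adjusted p = 0.0497). The other was Dusp5, an ERK phosphatase (1.42, limma adjusted p = 0.0369). For Ccl21a no WT ConA mouse exceeded 0.57 TPM, while the lowest KO ConA mouse reached 1.04 TPM. Its test between the ConA groups was thus possible only because the KO mice were above the minimum level. The adjusted p of Ccl21a there also lay close to the threshold, so this call is a weak one.

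Neutrophil genes rose in the same livers. S100a9 rose by 6.30 in WT and 7.26 in KO mice and Retnlg by 4.26 and 4.83, with 5 of 6 tested neutrophil markers higher in each, where 22.0% and 33.9% of all genes were. Retnlg, at no more than 0.14 and 0.29 TPM with saline in WT and KO mice, passed the minimum only through the ConA mice. The counts of neutrophil markers thus lean towards rises. Of 8 hepatocyte markers, 5 fell in WT and 7 in KO mice, where 31.0% and 30.7% of all genes fell. Alb had -0.71 and -0.98, Ttr -0.92 and -1.40, and Fabp1, which carries fatty acids, -1.61 and -2.41.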
